A study of Caenorhabditis elegans with 8 samples.

Results

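The genes described here are 141 of the 1937 genes in a deposited table of small RNA counts from whole young adult Caenorhabditis elegans. Against each of them the rde-12(hj41) mutant held moderately more small RNAs than N2, the wild-type strain. They were chosen on the measured values themselves. The rde-12 mean had to be at least 20 CPM (the count divided by the library's sum over the table and multiplied by 1000000), and the ratio of the rde-12 mean to the N2 mean had to be at least 1.25 and below 2.5. Another 11 genes met these limits but were left out by name, 2 of them on the clone AC8. The higher level in rde-12 is therefore the choice itself and not a finding and the edgeR calls given for the members support nothing about them.

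Both genotypes were fed OP50, the usual laboratory E. coli, for 50 h at 20 °C from synchronised L1 larvae. The N2 group had 2 libraries, and so did the rde-12(hj41) group, which carries the hj41 allele. RDE-12 is a helicase of the DEAD-box type in the RNA interference pathway. Each library came from about 50000 animals, and the labels call the samples biological. RNA of 20 to 26 nt was sequenced, after a TAP treatment that lets RNAs with a triphosphate end be ligated. The other 4 libraries of the series, from animals eating a sel-1 trigger, were not used here. The genes of the table summed to between 4270098 and 5563151 counts per library. The table is a selection of genes, so these sums are not the depth of the libraries. Small RNA counts against the rde-12 gene itself were not analysed here, and the genotype was taken from the labels.

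In C. elegans most small RNAs against the animal's own genes are secondary. RNA-dependent RNA polymerases copy short antisense RNAs from a target transcript, and worm-specific Argonaute proteins carry them. Some of these Argonautes silence their targets, whereas CSR-1 and its small RNAs act on germline transcripts that stay expressed. Many of these RNAs are made in the germ line, at perinuclear granules. RDE-12 is known to bind Argonautes and to act in the making of secondary small RNAs after a trigger is eaten. In RNA from whole animals, a change in the number of cells of a type and a change per cell cannot be told apart.

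The differences were small and spread over a wide range of levels. The ratio ran from 1.25 to 1.90 with a median of 1.35, against a median of 1.005 over all 1937 genes. Of the members, 95 lay below 1.4, 36 lay from 1.4 up to 1.6, and 10 reached 1.6 or more. N2 levels were below 100 CPM for 60 members, between 100 and 1000 for 72 and at 1000 or more for 9. The median N2 level was 131 CPM, beside 149 over the whole table. Together the members held 4.37% and 4.43% of the counts in the N2 libraries and 6.09% and 6.01% in the rde-12 libraries, 1.38 times the share. Replicates lay close together: the median coefficient of variation of the 2 libraries was 4.01% in N2 and 3.02% in rde-12, beside 3.71% and 3.80% over all genes.

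**Figure D1:**
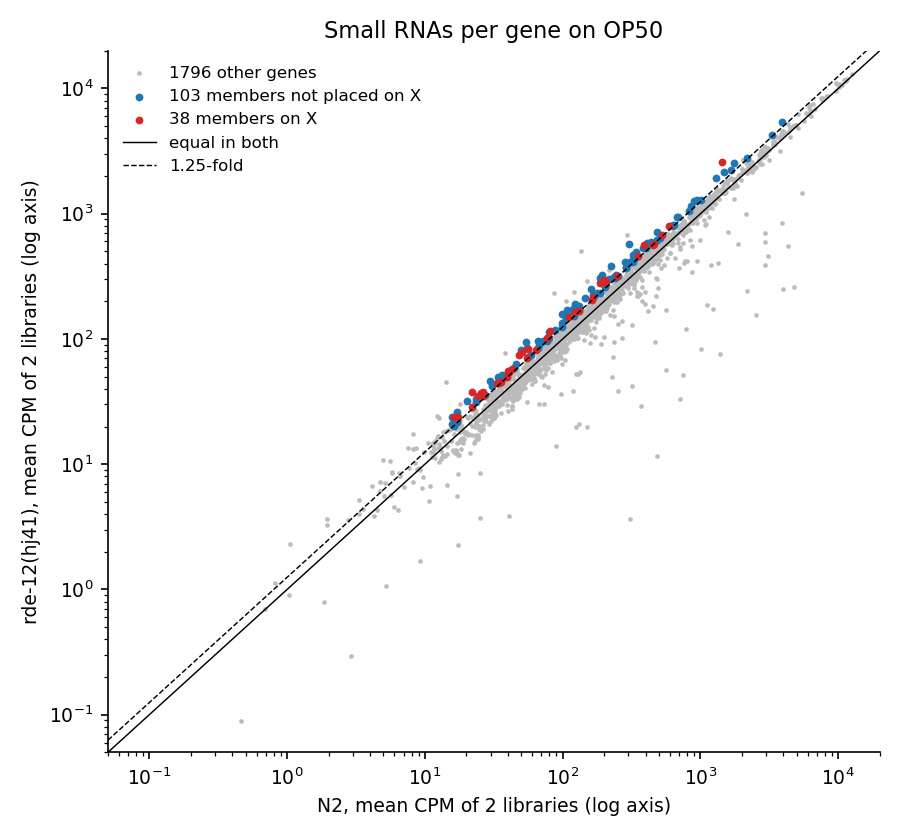
Mean CPM of each gene in N2 (x axis) and rde-12(hj41) (y axis), both on log axes, with the mean of 2 libraries per genotype. The 141 members lie above the dashed 1.25-fold line at all levels from 20 CPM upward, in a band close to the line, while the genes furthest from equality lie below it.

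With edgeR's quasi-likelihood test and a Benjamini-Hochberg adjusted p under 0.05, 129 of the 141 members were called higher in rde-12. Over all 1931 genes tested, 13.8% were called higher (267 genes) and 13.9% lower (268 genes). The split moved to 333 higher and 221 lower with library totals and to 370 and 202 with upper-quartile factors. Leaving out rde-12 replicate 1 gave 165 and 175. The rule used the same contrast, so the members' count describes the choice. Their median log2 change in this fit was 0.41, against −0.02 over all genes tested. In 139 members both rde-12 libraries lay above both N2 libraries, as they did for 35.5% of all genes. The remaining 2 were Y71A12B.12 and F43G6.8. Y71A12B.12 had 309 and 199 CPM in N2 and 343 and 294 in the mutant, so that the lower rde-12 library lay between the N2 libraries. Its log2 change was 0.31. Leaving out 1 library at a time, it was 0.68 without N2 replicate 1 and 0.02 without N2 replicate 2. When rde-12 replicate 1 was dropped it was 0.17. The 12 members that were not called had ratios from 1.25 to 1.37. Apart from Y71A12B.12 they had rde-12 means of 50.2 CPM or less, among them the nuclear receptor gene nhr-1 at 28.4 and the F-box gene fbxb-91 at 31.5.

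The lower edge of the rule cuts through a continuous range of ratios. C44C10.5 (1.252), F44E5.1 (1.253) and Y71A12B.12 (1.254) were just inside, and F13H10.9 (1.249), B0261.8 (1.247) and F19B2.6 (1.247) just outside. No member came near the upper limit: above Y54G2A.19 at 1.90 the next genes not left out by name were hphd-1 at 3.14 and T16H12.2 at 3.70. Part of this gap comes from the exclusions by name and is not a gap in the data. Genes left out by name lay in that part, from afmd-2 at 1.92 to col-111 at 2.34. Between col-111 and the upper limit no gene met the rule, so the exclusions do not explain that stretch. At the level limit, F44E5.1 at 20.3 CPM and F17C11.11 at 20.8 were inside, and C02B8.6 at 18.8 and the calmodulin gene cmd-1 at 18.7 outside.

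Of the 10 members with the highest ratios, 1 has a gene name in the annotation. This count depends on the exclusions by name, which took out named genes with ratios in this range or above it. Among those were col-111 at 2.34, irx-1 at 2.02, afmd-2 at 1.92 and jmjd-3.2 at 1.70. F31C3.6 at 1.92 and Y71F9B.13 at 1.96, known by sequence ID only, were left out as well. Y54G2A.19 had 284 and 321 CPM in N2 and 582 and 568 in the mutant (302 ± 26.0 against 575 ± 10.0, mean ± SD, n = 2 each). Its log2 change was 0.90 ± 0.067 (SE of the edgeR fit). The gap between genotypes was wider than that between replicates, which the choice of the highest ratios favours. F59C12.4 had 1417 and 1468 CPM in the N2 libraries, and 2714 and 2506 in those of rde-12 (log2 change 0.83 ± 0.064). This X-linked gene is annotated with a coding length of 147 bases. Per kilobase of annotated exon it had 17403 CPM in rde-12, the highest density among members, followed by rnh-1.3 at 10924. The named gene among the 10 members was ckb-4 (F22F7.5), a choline kinase-like gene, with 196 and 190 CPM in N2 and 324 and 323 in the mutant. The other 7, F02E11.4, F13C5.1, C16C8.16, R02C2.1, Y65B4BL.7, W06H8.6 and C35B1.5, had ratios from 1.601 to 1.742. At these 7 both rde-12 libraries lay above both N2 libraries, as in 139 of the 141 members and 35.5% of all genes. The choice of high ratios favours this. Y65B4BL.7 overlaps the germ granule gene deps-1 on the other strand and acs-13 on its own. Since none of the sources says whether strand was used in counting, the reads of these genes cannot be told apart.

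**Figure D2:**
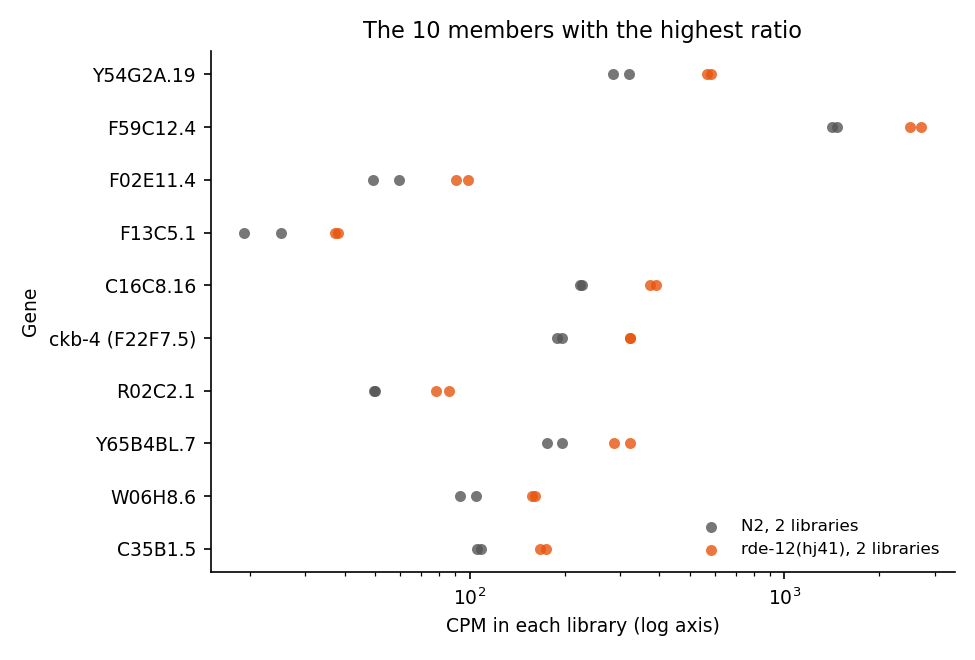
CPM in each library (x axis, log scale) for the 10 members with the highest ratio of rde-12 to N2, with 2 libraries per genotype and 1 row per gene. In every row both rde-12 points lie to the right of both N2 points, from F13C5.1 near 20 to 40 CPM up to F59C12.4 at 1417 to 2714. The genes were chosen as higher in rde-12.

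The members with the most counts had ratios between 1.28 and 1.81. The highest level was that of rnh-1.3 (C04F12.9), named as an RNase H gene, an enzyme class that cuts RNA paired with DNA. It had 3841 and 3918 CPM in wild type and 5415 and 5379 in the mutant (log2 change 0.45 ± 0.058). Next came pvf-1 (Y39A3CL.6), which encodes a growth factor of the PDGF and VEGF type, at 3314 ± 12.54 in N2 and 4229 ± 26.8 in rde-12. The third was fbxa-149, annotated as a pseudogene of the F-box family, at 2167 ± 71.3 and 2774 ± 11.2. The F-box family holds many similar genes, so its separate values are uncertain. Y2C2A.1 (ratio 1.46) matched no gene of the reference table and keeps its ID.

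Further down the same order were zip-2, osm-3 and dpy-31. The bZIP transcription factor ZIP-2 acts in the response to bacterial infection, and its gene had 1457 and 1503 CPM in N2 and 2205 and 2092 in the mutant. OSM-3 is a kinesin motor of sensory cilia. Its gene had 1292 CPM in both N2 libraries and 1928 in both rde-12 libraries, the same to the whole number within each genotype. This gene overlaps algn-14 on its own strand and K09B3.1 on the other. DPY-31 is a protease of the tolloid type that matures cuticle collagen, and its gene had 950 ± 50.4 CPM in N2 and 1290 ± 34.9 in rde-12. F10E7.2 and Y54G11A.14, the remaining genes of the 10, had ratios of 1.28 and 1.35.

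The X chromosome, which the rule did not use, held more members than any other chromosome. Of the 140 members with an annotated chromosome, 38 (27.1%) lie on X. Among all table genes with a chromosome the X share was 193 of 1900 (10.2%), and among those with at least 20 CPM in rde-12 it was 9.6%. For comparison, genes that moderately lost small RNAs had an N2 mean of at least 20 CPM and a ratio above 0.4 and up to 0.8. Of the 136 with a chromosome, 16 (11.8%) lie on X, as do 104 of 1456 (7.1%) little changed genes with a ratio between 0.8 and 1.25. Chromosomes I and III held smaller shares of the members (12.1% and 10.7%) than of all table genes (20.9% and 18.3%). These shares are a description of 1 table and were not tested. X is known for being largely silent in the germ line of the worm and for carrying many genes used in other tissues.

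**Figure D3:**
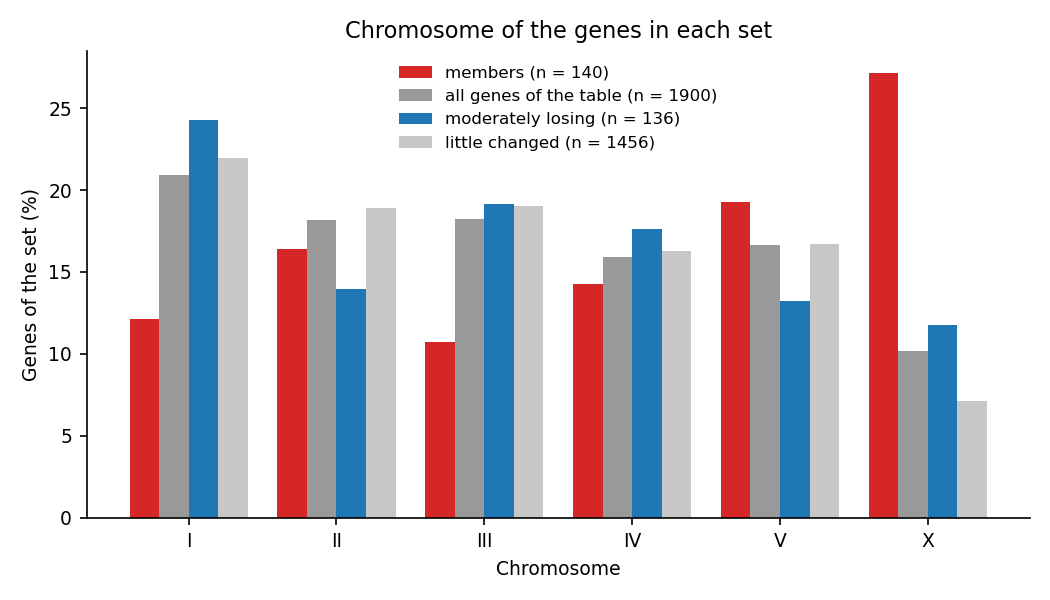
Share of the genes of each set (y axis, %) that lie on each chromosome (x axis), by the WBcel235 annotation. The red bar of the members stands at 27.1% on X, where all table genes reach 10.2%, the moderately losing genes 11.8% and the little changed genes 7.1%.

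X genes as a whole also had higher changes than autosomal genes, a description that includes the members. Over the 191 X genes tested the median log2 change was 0.15, against −0.03 over 1703 autosomal genes. The edgeR test called 64 X genes higher (33.5%) and 33 lower (17.3%), but 33 of the 64 are members. Without the members, which takes genes only from the high side, the median was 0.07 over 153 X genes and −0.04 over 1601 autosomal genes. Of these X genes 31 were called higher (20.3%) and 33 lower (21.6%). Taking out the members removed 33 higher calls and no lower ones, so this balance says nothing about direction. Of the autosomal genes 105 were called higher (6.56%) and 230 lower (14.4%), after 95 called members were taken out. With the members 200 autosomal genes were called higher (11.7%) and 230 lower (13.5%). In the 4 pairings of an rde-12 library with an N2 library, computed from plain CPM, the X median without members lay between 0.08 and 0.13 and the autosomal one between −0.07 and 0.04. With the members the X median lay between 0.14 and 0.19. Between replicates of a genotype the X median was 0.01 in N2 and 0.01 in rde-12, and the autosomal one 0.03 in N2 and 0.04 in rde-12. The summed counts did not follow the medians. X genes outside the members held 11.1% ± 0.0637 of the counts in N2 and 11.003% ± 0.0432 in the mutant (SD of 2 libraries), while the X members, chosen as higher, went from 0.662% ± 0.0132 to 0.954% ± 0.00699.

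X members had a median N2 level of 60.4 CPM, against 167 for the 102 members on other chromosomes, and median ratios of 1.33 and 1.35. All genes of the table were also grouped by their mean level over the 4 libraries, a grouping chosen after the data were seen. From 20 up to 100 CPM the median log2 change was 0.26 over 51 X genes, of which 22 were members, and −0.10 over 533 autosomal genes, of which 29 were. From 100 up to 300 CPM it was 0.10 on X and −0.03 on autosomes, and from 300 up to 1000 CPM 0.06 and 0.02. At 1000 CPM or more it was 0.13 over 29 X genes, with 1 member, and 0.05 over 186 autosomal genes, with 10. The X median was above the autosomal one in each range, without a steady order across the ranges, and these differences were not tested.

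**Figure D4:**
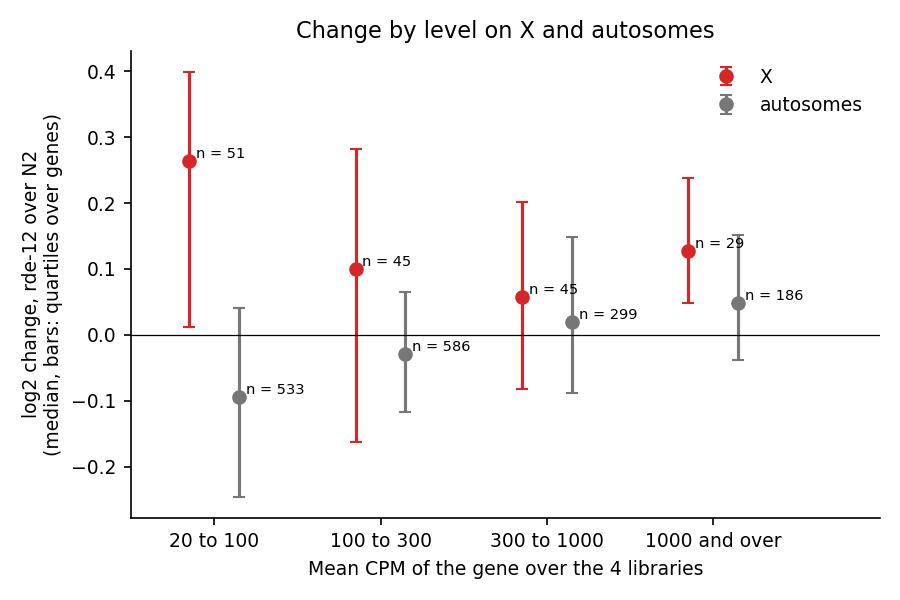
Log2 change of rde-12 over N2 (y axis) by the mean CPM of the gene over the 4 libraries (x axis), for X (red) and autosomes (grey), members included. Points are medians over genes and bars run between the quartiles over genes; the X median is higher in each range, by most from 20 to 100 CPM (0.26 against −0.10), and the bars of X and autosomes overlap in every range.

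X members with known roles covered unrelated functions. The strongest after F59C12.4 and F13C5.1 was rei-2 (ratio 1.56), a gene for an exchange factor of a Rab GTPase. Its values were 48.7 and 47.0 CPM in N2 and 73.9 and 75.1 in the mutant. Its namesake rei-1, outside the members, had 79.9 ± 5.55 and 79.2 ± 0.0938 CPM. Small RNAs against pab-2, which encodes a poly(A)-binding protein, stood at 190 and 183 CPM in N2 and 281 and 276 in the mutant. The gene lnp-1, for the lunapark protein of endoplasmic reticulum junctions, had 388 ± 5.48 and 565 ± 19.3 CPM. At ain-1, which encodes the GW182-type partner of microRNA Argonautes, levels were 24.4 ± 1.68 and 34.8 ± 0.729 CPM. The synaptic active zone gene unc-10 (RIM) went from 42.7 ± 2.16 to 57.8 ± 7.25 CPM. The 10 genes of the table named unc had a median ratio of 0.96, and 4 were above 1. Also on X was jmjd-3.1, for a demethylase of histone H3, with 578 and 604 CPM in N2 and 765 and 817 in the mutant.

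Classes of genes, 13 in number and defined by their worm gene names, were looked up in the table, and 31 members fell in one of them. The counts cover the listed names only and miss genes of like role. Among members, ain-1, pab-2, fib-1, rack-1 and cnb-1 fell in no class. The phosphatase gene tax-6 was counted only under neuronal signalling. Members make up 7.28% of all table genes. Of 36 transcription regulator genes, 7 were members, and of the 35 tested 8 were called higher and 4 lower. The members were zip-2, the nuclear receptor genes nhr-58, nhr-204, nhr-1 and nhr-146, the zinc finger gene ztf-13 and the homeobox gene ceh-82. At nhr-58 (R11G11.2) the libraries read 124 and 123 CPM in N2 and 187 and 193 in the mutant, a ratio of 1.54. At nhr-204 they read 124 and 131 against 168 and 170. Over the 18 nuclear receptor genes of the table the ratio ran from 0.93 to 1.54 with a median of 1.09, and 15 were above 1.

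Genes of chromatin and histones numbered 28, of which 8 were called higher and 1 lower, with 2 members, jmjd-3.1 and the heterochromatin protein gene hpl-1 (41.0 ± 3.33 and 54.3 ± 2.06 CPM). All 3 jmjd genes of the table were called higher. The ratio was 1.34 for jmjd-3.1, 1.18 for jmjd-3.3, below the rule, and 1.70 for jmjd-3.2, which was left out by name. These genes resemble each other, so reads shared among them leave their separate values uncertain.

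The ubiquitin pathway class, which takes in F-box, BTB and MATH genes, had 99 genes, with 15 called higher and 16 lower. Its 8 members were fbxa-149, fbxa-184, fbxb-45, fbxb-91, fbxc-18, skr-21, siah-1 and sdz-26. SKR-21 is a Skp1-related adaptor that joins F-box proteins to ubiquitin ligases, and SIAH-1 is a ligase with a RING finger. At fbxa-184 (F45C12.8) the N2 libraries had 412 and 401 CPM and the rde-12 libraries 596 and 580. At skr-21 they had 346 and 356 against 432 and 484. The 54 genes named fbxa, fbxb or fbxc had ratios from 0.0119 to 1.55 with a median of 1.01, and 5 of them were members.

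Among metabolic enzymes and transporters, 5 of 65 were members, and 12 were called higher and 5 lower. The ABC transporter gene haf-4, which acts in lysosome-related granules of the intestine, had 480 and 486 CPM in N2 and 726 and 714 in the mutant. The acyl-CoA synthetase gene acs-5 had 824 ± 1.90 and 1054 ± 29.9 CPM. Over the 5 acs genes of the table the ratio ran from 0.86 to 1.28 with a median of 0.96, and 2 were above 1. For gpx-4, named as a glutathione peroxidase gene, the levels were 342 ± 4.14 and 497 ± 1.42 CPM, and the other members were ckb-4 and the aldehyde dehydrogenase gene alh-8. Of 31 genes for receptors, channels and neuronal signalling, 5 were called higher and 4 lower, and 4 were members: osm-3, tax-6, the neuropeptide gene nlp-62 (132 ± 2.65 and 172 ± 10.5 CPM) and egl-9. Of 28 genes of RNA binding and translation, 5 were called higher and 0 lower, with a median log2 change of −0.05. Members among them were eef-1G and rsp-3, a share (7.14%) close to that over all table genes. The 4 eef genes of the table, for elongation factors, had ratios from 1.05 to 1.30.

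Some classes had no member among their listed names, which leave out ain-1 and count zip-2 only as a transcription regulator. The small RNA pathway and germ granule class had 29 genes, of which 1 was called higher and 2 lower. The cell cycle, meiosis and DNA repair class had 35, with 2 and 1. The 29 sperm genes, with 0 called higher and 8 lower, had a median log2 change of −0.25. The 13 immune and lectin genes had 2 called higher and 1 lower. Membrane traffic and cytoskeleton had 1 member of 32 genes, the alpha-tubulin gene tba-2 (336 ± 21.5 and 441 ± 7.34 CPM), cuticle and matrix 1 of 17, dpy-31, and kinases and phosphatases 1 of 12, ttn-1.

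Further members stood out by their known roles when the names were read, after their values had been seen. Both subunits of calcineurin, a calcium-dependent phosphatase, were members, though tax-6 overlaps ced-5 on the other strand. Its catalytic subunit gene tax-6 had 99.3 and 99.0 CPM in N2 and 125 and 144 in the mutant, and its regulatory subunit gene cnb-1 had 167 and 164 against 235 and 211. Both egl-9 and vhl-1, genes of oxygen sensing, were members as well: the first encodes the prolyl hydroxylase that marks the factor HIF-1 for destruction, and the other the ligase subunit that recognises the mark. At egl-9 the levels were 76.4 ± 0.398 and 96.9 ± 4.84 CPM, and at vhl-1 they were 81.4 ± 7.05 and 115.3 ± 6.46.

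Among long genes, ttn-1, dys-1 and unc-68 were members, with proteins known from muscle. The titin-like gene ttn-1 had 424 and 346 CPM in N2 and 536 and 522 in the mutant, the dystrophin gene dys-1 316 and 298 against 418 and 409, and the ryanodine receptor gene unc-68 199 and 206 against 254 and 289. Their annotated coding lengths are 45564, 11022 and 15606 bases. The longest of the little changed genes has 25635. Long genes and muscle genes were not counted as groups. Per kilobase of exon in rde-12 they had 9.43, 35.9 and 16.8 CPM, against 234 for ckb-4. Single members with other known roles were fib-1 (fibrillarin of the nucleolus, 244 ± 33.9 and 323 ± 13.96 CPM), rack-1, a protein of the small ribosomal subunit (98.5 ± 12.1 and 124 ± 2.90), and the splicing factor gene rsp-3 (120 ± 15.1 and 153 ± 1.62). The flavin monooxygenase gene fmo-5 (162 ± 4.88 and 252 ± 4.94 CPM) and somi-1, a zinc finger gene known from microRNA studies (66.0 ± 1.90 and 96.9 ± 10.0), had ratios of 1.56 and 1.47.

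Another 6 members, also named after their values were seen, had ratios between 1.26 and 1.34. Their levels are given first for N2 and then for rde-12. The mitochondrial genes ant-1.1, for an ADP/ATP carrier, and asb-2, for a subunit of the ATP synthase, had 237 ± 11.2 and 313 ± 29.4 CPM, and 132 ± 2.41 and 166 ± 0.717 CPM. At prx-13, a gene of protein import into peroxisomes, levels were 485 ± 23.1 and 621 ± 6.38 CPM. The calreticulin gene crt-1, for a calcium-binding chaperone of the endoplasmic reticulum, had 71.5 ± 1.79 and 95.9 ± 2.86 CPM. At gsa-1, which encodes a stimulatory G protein alpha subunit, they were 325 ± 13.8 and 409 ± 14.3 CPM. The sterol methyltransferase gene strm-1 had 634 ± 1.97 and 807 ± 16.5 CPM. At each of these genes both rde-12 libraries were above both N2 libraries, as in 139 of the 141 members, which were chosen as higher. The share over all genes was 35.5%.

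Gene models of the members differed little in their medians from those of the whole table, a description with no test. The median coding length was 982.5 bases, against 1122 over all table genes, 1149 in the moderately losing genes and 1197 in the little changed genes. The highest annotated number of exons in a transcript had a median of 5, against 6. Protein-coding genes made up 138 members and pseudogenes 2, and 69 members have no name beyond the sequence ID. A gene on the opposite strand overlaps 29 members (20.7%, against 23.9% of all table genes), and a gene on the same strand overlaps 6 (4.29%, against 7.89%). For such genes counts can include reads of the partner. Among those named above are tax-6, zip-2, haf-4, ttn-1, crt-1, prx-13, strm-1 and rsp-3 (opposite strand) and rack-1 (same strand). In 10 clones there were 2 members each, 20 genes in all, among them F45C12.8 and F45C12.2, and R02C2.1 and R02C2.4. Immediate neighbours in the annotation were rarer, at 4 members. One such pair was D1025.1 and D1025.10 on X, with ratios of 1.33 and 1.37. Of all 1937 genes, 24 had a member next to them. No member shared identical counts in all libraries with another ID.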

How the data were processed

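The authors deposited whole-number small RNA counts per gene for the 4 OP50 libraries, not normalized. The submitters' processing notes list TopHat 1.4.1 beside SAMtools and bedtools. Not given in the sources used here are the build, the annotation, the strand counted, the handling of reads with several matches and how genes were selected; each could move counts between similar or overlapping genes. The table has 1959 rows, and 22 repeats were counted once. Names, chromosomes and gene models came by gene ID from RefSeq (assembly WBcel235) and Ensembl release 115. Of 1937 IDs, 1900 matched RefSeq, as did 140 of 141 members. No genome positions are printed.

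CPM are counts divided by the column sum, times 1000000. Log2 changes came from edgeR 4.0.16 (R 4.3.3, quasi-likelihood test, TMM, 6 genes dropped by filterByExpr) with Benjamini-Hochberg adjustment over 1931 genes, after a check on simulated data. The SE is the absolute log2 change divided by the root of F. Chi-square per degree of freedom between replicates was 3.50 in N2 and 4.13 in rde-12, above sampling noise, so each library counted separately. DESeq2 1.42.0, other scalings, no filter, other level limits, a replicate block and leaving out each library were tried. Members and gene classes were chosen with earlier results of these data known. Named were the 10 highest ratios, the 10 highest levels, the 3 highest levels of each class with at least 3 members, genes at the edges of the rule and some clone neighbours, and others after their values were seen.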

Additional observations from a re-analysis of the deposited data

How the results depend on the processing

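Of 394 alternative values 340 stayed within their limit, 54 moved by more and 0 turned sign. The limit was the spread between replicates, and for counts 1.5 times. For the X share it was set by a binomial interval over genes and not by the spread between replicates. Among 320 values of the 32 named genes 275 stayed and 45 moved, the lowest log2 change being 0.02 at Y71A12B.12 without N2 replicate 2. The number of genes meeting the rule was 123 with TMM factors, all of them members, 162 with upper-quartile factors, and between 128 and 177 with a library left out, of which 112 to 134 were members. The X share of these genes, an alternative chosen after the data were seen, stayed between 23.3% and 28.5%. The median log2 change of the members was 0.46 with upper-quartile factors and between 0.40 and 0.45 with a library left out. That of X genes was 0.18 with library totals, 0.20 with upper-quartile factors and between 0.13 and 0.17 with a library left out. Of the members DESeq2 called 100 higher, and with a library left out edgeR called between 104 and 127. Leaving out a library leaves 1 sample in its genotype, which is assumed to vary like the other genotype's 2. Over all genes, DESeq2 called 207 higher and 157 lower. With a library left out, between 165 and 308 were called higher and between 175 and 304 lower, the fewest without rde-12 replicate 1. Rises made up 49.9% of calls, and 60.1% with library totals or 64.7% with upper-quartile factors. The cause of these shifts was not tested. Same-numbered samples did not deviate together (correlation −0.003). With 2 libraries per genotype this cannot show whether same-numbered samples were prepared together. With the replicate block 122 members were called higher, beside 243 higher and 230 lower over all genes tested. Members that were called had a median rde-12 level of 217 CPM and those not called 29.9 CPM; the part of depth in this was not tested.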
